A study of Rattus norvegicus with 6 samples.

Results

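The genes of 8 peripheral myelin proteins, namely Mbp, Pmp22, Prx, Mag, Pmp2, Gjb1, Cnp and Mal, were examined in sciatic nerves of Sprague-Dawley rats by RNA-seq. They were taken by name from a table of 30957 genes, and each name had 1 row. The table holds 3 crushed nerves, labelled as injured, and 3 intact nerves, labelled as normal, which came from the opposite side. All rats were of the same strain, and the methods describe them as adult males whose crushed nerves were sampled as a short proximal stump at 4 days postinjury (dpi). The design text places the lesion on the right side and the methods on the left. The labels give no time, age or sex and do not say which nerves shared a rat or whether a library pooled rats. The counts summed over all genes lay between 24844371 and 27139360 per nerve.

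Myelin is the stack of membrane that a Schwann cell wraps around an axon, and its layers are held together by a small set of abundant proteins. Some of these proteins sit in the tightly packed (compact) layers, and others in the channels, loops and inner face that stay filled with cytoplasm. A Schwann cell that loses its axon stops making myelin protein mRNAs and begins to divide, which is a well-known step of the response to nerve injury. Of the 8 genes, Mbp, Prx, Mag and Pmp2 were classed as myelin-restricted within nerve, and Pmp22, Cnp, Gjb1 and Mal as also made by other cells such as fibroblasts, epithelia and lymphocytes.

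The defining Schwann cell markers Sox10, S100b and Cdh19 had 3 counts or fewer in every library, whereas the proliferation gene Mki67 had between 37037 and 43837 counts. The values thus go against the label of whole sciatic nerve in both groups, and it is in doubt whether the table comes from that tissue. In what follows, an intact or a crushed nerve means a library with that label, and each difference is one between libraries so labelled.

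Only 3 of the 8 genes had more than 3 counts in any nerve. Cnp, Pmp22 and Prx had between 590 and 1473 counts in every nerve, whereas Mbp, Mag, Pmp2, Gjb1 and Mal had between 0 and 3. The 5 genes with few counts had few in intact and crushed nerves alike. They were 3 of the 4 myelin-restricted genes and 2 of the 4 genes also made by other cells, so that the counted genes did not follow this division.

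**Figure D1:**
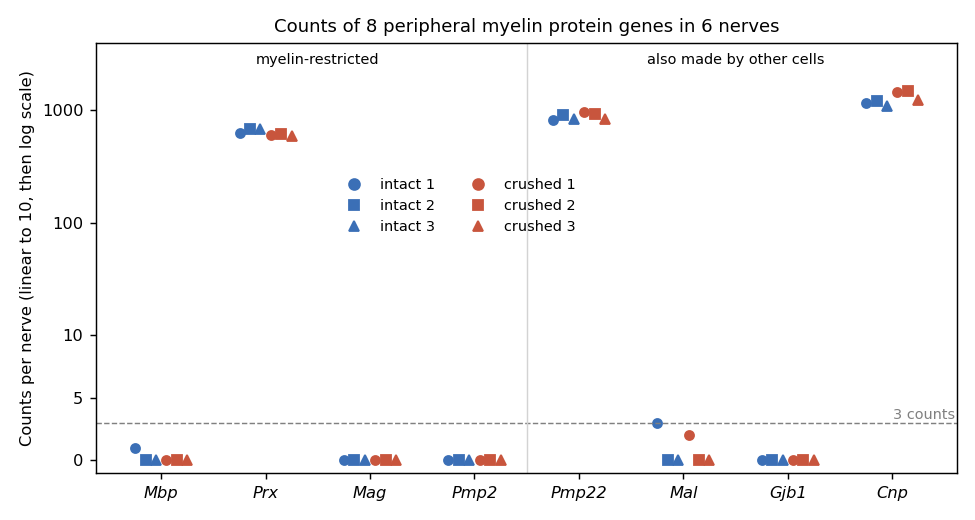
Counts of the 8 peripheral myelin protein genes in each of the 6 nerves (y axis, counts, linear to 10 and logarithmic above; 1 symbol per nerve, blue intact and red crushed; the dashed line marks 3 counts). Cnp, Pmp22 and Prx lie between 590 and 1473 counts, and the other 5 genes lie at 3 counts or fewer.

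Mbp encodes myelin basic protein, which binds the cytoplasmic faces of compact myelin together and whose mRNA is normally among the most abundant of a myelinating cell. It had 1 count in intact nerve 1 and none in the other 5 nerves. Mag encodes myelin-associated glycoprotein, a sialic acid-binding adhesion protein on the inner face of the sheath that meets the axon. Pmp2 encodes a fatty acid-binding protein of compact myelin. Gjb1 encodes connexin 32, whose gap junctions link the cytoplasmic layers of the sheath and which is also made in liver. Mag, Pmp2 and Gjb1 had 0 counts in all 6 nerves. Mal encodes a lipid raft protein of myelin that epithelia and T cells also make. Intact nerve 1 held 3 counts of it and crushed nerve 1 held 2, and the other 4 nerves held none. Its 5 counts came from the nerve numbered 1 of each group, and the groups overlapped.

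For these 5 genes no difference between crushed and intact nerves was detectable at this depth. A floor of 3 counts was used, equal to 0.110 to 0.121 normalized CPM depending on the nerve, where normalized CPM are counts corrected for library size by TMM scaling. Per length of gene, 3 counts were between 0.0305 and 0.0333 FPKM (counts scaled to gene length and library size) for Mbp and between 0.0487 and 0.0532 FPKM for Mal. No fold change is given for them, since both groups lay at or under 3 counts. These floors cover counting error only.

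The 3 counted genes differ in where their proteins work. Cnp encodes 2',3'-cyclic nucleotide 3'-phosphodiesterase, an enzyme that keeps the cytoplasmic channels of myelin open and is also made in other cells such as lymphocytes. It is listed as ENSRNOG00000017496 on chromosome 10 from 88490798 to 88497356. Pmp22 encodes a tetraspan protein of compact myelin that was also found as a growth arrest gene of fibroblasts. It is ENSRNOG00000003338 on chromosome 10 from 49538588 to 49568583. Prx encodes periaxin, a scaffold of the Schwann cell's outer membrane that holds a dystroglycan complex in place. It is ENSRNOG00000018369 on chromosome 1 from 84304228 to 84324560. These positions are those of the deposited table, for which the submitters' notes name the build Rnor_6.0. None of the 8 loci overlapped another gene of the table.

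The promoters of the 3 counted genes are shown because one is rich in CG pairs, as is common in genes that many tissues use, and the others are not. Each window runs from 250 bases before to 50 bases after the gene's start in RefSeq on the GRCr8 assembly, written 5′ to 3′ on the gene's strand with CG pairs in capitals. The windows are chr10:86011254-86011553 (plus strand) for Cnp, chr10:48294682-48294981 (plus strand) for Pmp22 and chr1:91914171-91914470 (plus strand) for Prx.
Cnp: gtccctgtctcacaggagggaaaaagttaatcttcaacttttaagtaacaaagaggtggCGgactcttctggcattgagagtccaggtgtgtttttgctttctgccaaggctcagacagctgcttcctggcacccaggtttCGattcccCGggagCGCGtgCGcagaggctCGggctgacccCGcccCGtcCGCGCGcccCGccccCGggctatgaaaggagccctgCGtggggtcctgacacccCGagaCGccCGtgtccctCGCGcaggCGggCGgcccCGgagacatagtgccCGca
Pmp22: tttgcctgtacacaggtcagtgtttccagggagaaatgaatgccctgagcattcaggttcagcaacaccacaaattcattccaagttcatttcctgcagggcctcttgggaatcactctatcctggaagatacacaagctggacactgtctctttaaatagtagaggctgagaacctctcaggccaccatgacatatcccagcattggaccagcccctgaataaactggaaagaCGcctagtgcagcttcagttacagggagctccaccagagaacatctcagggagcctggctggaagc
Prx: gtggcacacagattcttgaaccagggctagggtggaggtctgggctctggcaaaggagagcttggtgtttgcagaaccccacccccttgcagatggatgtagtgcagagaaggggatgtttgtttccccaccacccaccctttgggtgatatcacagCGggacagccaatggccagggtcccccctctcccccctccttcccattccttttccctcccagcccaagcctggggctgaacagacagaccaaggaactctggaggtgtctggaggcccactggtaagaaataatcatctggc

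The Cnp window held 24 CG pairs, more than 82.0% of the 33469 RefSeq windows of that length. The Pmp22 and Prx windows held 1 CG pair each, and 5.47% of windows held fewer. Windows were matched for 7 of the 8 genes, all but Pmp2. Among the genes with 3 counts or fewer, the Gjb1 window held 3 CG pairs, the Mag window 6 and the Mal window 19, while Mbp has a pair of windows with 19 and 13. Windows with many and with few CG pairs thus occurred among the counted and the uncounted genes. The letters ACAAAG, a core match for SOX factors such as SOX10, occurred on either strand in the Cnp and Mag windows and in 1 of the Mbp windows, once in each, and in 18.8% of all windows. The letters GCGNGGGCG, a match for EGR factors such as EGR2, occurred in none of the members' windows and in 4.98% of all windows. A match is a description of letters only.

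Crushed and intact nerves were compared with edgeR's quasi-likelihood test over the 12393 genes that passed its expression filter, among them Cnp, Pmp22 and Prx. None of the 3 met the limits taken from the methods (log2 fold change beyond 1 in either direction, unadjusted p under 0.001), which were met by 0.282% of all genes tested. None reached an adjusted p under 0.05 with Benjamini-Hochberg adjustment either, which 3.12% of all genes did, 1.47% higher and 1.65% lower. The unadjusted p was under 0.05 for 2 of the 3, Cnp and Prx, against 16.2% of all genes. DESeq2 and limma also called 0 of the 3 at an adjusted p under 0.05 and 2 of the 3 at an unadjusted p under 0.05. In these bulk samples, a smaller number of cells of a type and less RNA per cell cannot be told apart.

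Cnp was higher in each crushed nerve than in any intact nerve. Intact nerves 1, 2 and 3 held 45.9, 46.3 and 43.8 normalized CPM, against 53.6, 54.3 and 49.8 for crushed nerves 1, 2 and 3. The means were 45.3 ± 1.32 and 52.5 ± 2.42 normalized CPM (SD over 3 nerves), a difference of 15.9%. The groups did not overlap, as was so in this direction for 10.8% of all genes tested. The log2 fold change was 0.21 (standard error 0.0555, 95% interval 0.0901 to 0.335) and edgeR's quasi-likelihood test returned an adjusted p = 0.0740. Cnp therefore did not pass after correction over all genes. The exact permutation test over the 6 nerves (two-sided) gave p = 0.1, and no smaller p is possible with 3 nerves in each group.

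Prx was lower in each crushed nerve than in any intact nerve. Intact nerves 1, 2 and 3 held 24.9, 25.8 and 27.9 normalized CPM, against 22.0, 22.7 and 23.5 for crushed nerves 1, 2 and 3. The means were 26.2 ± 1.51 and 22.7 ± 0.789 normalized CPM (SD over 3 nerves). The lowest intact nerve, nerve 1, and the highest crushed nerve, nerve 3, were close together, and 12.2% of all genes tested were separated in this direction. The log2 fold change was -0.20 (standard error 0.0690, 95% interval -0.357 to -0.0523), and the same edgeR test returned an adjusted p = 0.166. The exact permutation test (two-sided) again gave p = 0.1. The difference of Prx, the only myelin-restricted gene with more than 1 count in a nerve, did not pass the correction.

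Pmp22 overlapped between the groups. Intact nerves 1, 2 and 3 held 32.4, 34.7 and 33.8 normalized CPM, against 35.4, 34.3 and 33.5 for crushed nerves 1, 2 and 3. The means of 33.7 ± 1.14 and 34.4 ± 0.986 normalized CPM (SD over 3 nerves) differed by less than the spread between nerves. The log2 fold change was 0.03 ± 0.0578 (SE), at an adjusted p = 0.834 by edgeR, and the exact permutation test gave p = 0.5. Its 95% interval of -0.0955 to 0.160 on the log2 scale leaves out changes as large as the limit of 1 used in the methods. The spread within a group was small for all 3 genes, with a coefficient of variation between 2.86% and 5.76%.

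**Figure D2:**
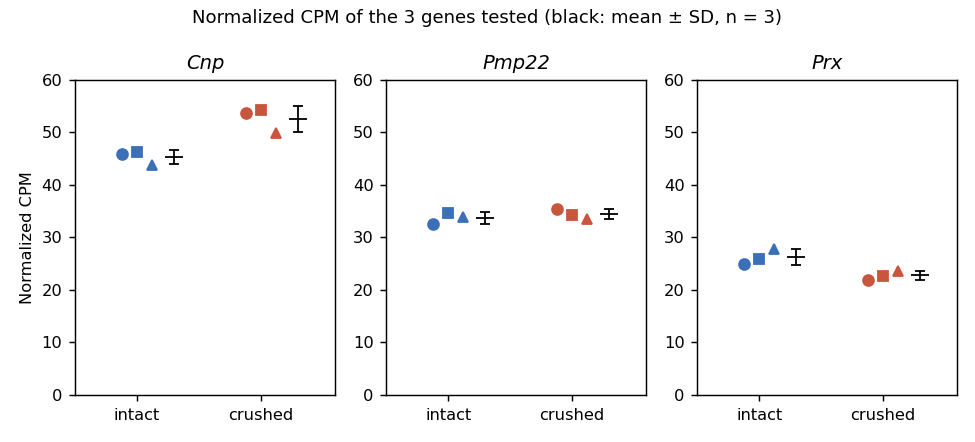
Normalized CPM (y axis, starting at 0) of Cnp, Pmp22 and Prx in 3 intact (blue) and 3 crushed (red) nerves, with the mean and SD of each group in black; circles, squares and triangles are nerves 1, 2 and 3. Cnp is higher in the crushed nerves (52.5 against 45.3), Prx lower (22.7 against 26.2), and Pmp22 overlaps (34.4 against 33.7).

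Per length of gene, Cnp had the highest level, followed by Pmp22 and Prx, in each of the 6 nerves. In FPKM, Cnp lay at 19.6 ± 0.520 in intact and 23.0 ± 1.05 in crushed nerves, Pmp22 at 10.2 ± 0.370 and 10.6 ± 0.306, and Prx at 5.63 ± 0.343 and 4.94 ± 0.171 (SD, n = 3 nerves each). The ranges of neighbouring genes in this order did not overlap over the 6 nerves, with 19.0 to 23.7 FPKM for Cnp, 9.82 to 10.9 FPKM for Pmp22 and 4.78 to 6.004 FPKM for Prx. None of these levels was high among the genes tested. Cnp had a higher mean FPKM than 64.6% of them, Pmp22 than 44.2% and Prx than 28.7%.

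The levels of the 3 genes were also compared with one another within each nerve, which no scaling of the libraries changes. This comparison was added after the values were seen. The count of Cnp divided by that of Prx was 1.84, 1.79 and 1.57 for intact nerves 1, 2 and 3, against 2.44, 2.39 and 2.11 for crushed nerves 1, 2 and 3. The groups had to be apart here, since Cnp was higher and Prx lower in every crushed nerve. This ratio therefore adds no evidence to the separate values of Cnp and Prx. The ratio of Pmp22 to Prx was 1.29 ± 0.0666 in intact and 1.52 ± 0.0957 in crushed nerves, and that of Cnp to Pmp22 was 1.35 ± 0.0605 and 1.53 ± 0.0496 (SD, n = 3 nerves each). Over these 3 pairs of genes, each exact permutation test gave p = 0.1 and an adjusted p = 0.1, the smallest p that the design allows. For Cnp over Prx this p was fixed by the separate values of the genes. The 3 ratios share genes, so these tests are not independent of one another or of the tests of each gene.

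Lamb1, which encodes a laminin chain of the basal lamina, and AABR07006475.1 had the patterns most like that of Prx across the 6 nerves, with Pearson's r of 0.994 and 0.995 on log2 normalized CPM. For Pmp22 the nearest genes were Entpd5 (r = 0.996) and Adipor2 (r = 0.995), and for Cnp they were Gpr176 (r = 0.991) and Prkra (r = 0.990). With 6 nerves such values are common. Between 150 and 235 genes had r above 0.9 with each of the 3 genes.

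Genes of myelin and axon contact, regulators and inhibitors of myelination, and relatives of the members by protein family were read from 12 lists. Of these lists, 103 rows of the table were matched and 56 passed the expression filter. Elovl6 had more than 1 row, each counted as a gene. Of these 56 genes, 0 met the fold limit and 5 had an adjusted p under 0.05, all lower in crushed nerves. That is 8.93%, against 3.12% of all genes tested. The lists were chosen with earlier results of these data known, so this share is a description and not a test. The median log2 fold change of the 56 was -0.08, against -0.00174 for all genes tested. The 5 genes were Egr1, Itga6, Nab2, Ahnak and Ahnak2. The number called was 3 without crushed nerve 1 and 3 without crushed nerve 2. Some alternatives also called other genes, in both directions. Itgb1, higher in crushed nerves, was called in 5 of 11 alternatives (adjusted p = 0.0133 with DESeq2) and Cd82, also higher, in 3 of 11 (adjusted p = 0.0319 with DESeq2). Wwtr1 and Myrf, both lower, were also called with DESeq2 (adjusted p = 0.0229 and 0.0491). Myrf was named after its value was seen.

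Other myelin membrane proteins made up a list of 9 genes, of which 5 were tested and 0 were called, and their log2 fold changes had a median of -0.11. The other 4 had 3 counts or fewer in every nerve. The tetraspanins Cd82 and Cd9, which many cells make, had the highest levels of this list with a mean of 95.9 and 74.5 FPKM. Cd82 had 163 ± 7.56 normalized CPM in intact and 184 ± 5.10 in crushed nerves (SD over 3 nerves), and its log2 fold change of 0.18 did not pass (adjusted p = 0.0668 from the same edgeR test).

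Partners of periaxin and proteins of non-compact myelin made up a list of 10 genes. Among them 8 were tested and 0 called, with 6 of the 8 lower in crushed nerves and a median log2 fold change of -0.08. Among all genes tested, 6267 of 12393 were lower. The highest levels were those of Ezr (143 FPKM) and Tjp1 (98.4 FPKM), which encode linkers of the membrane to the cytoskeleton and to tight junctions. Dag1, which encodes dystroglycan, had between 9423 and 11116 counts, whereas Drp2, which encodes the dystrophin-related protein that periaxin binds, had between 3 and 8. These 2 genes were chosen after their values were seen.

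Genes of the contact between axon and glia had 4 of 10 members tested, of which 2 were higher and 2 lower in crushed nerves. Itga6 encodes the laminin-binding integrin α6, and it fell from 775 ± 25.2 to 650 ± 9.12 normalized CPM (SD over 3 nerves). For Itga6, 3 of 3 crushed nerves lay below all intact nerves, as was so for 12.2% of all genes tested. Its log2 fold change was -0.25 ± 0.0378 (SE), at an adjusted p = 0.00372 by edgeR. Itgb1, the integrin β1 that pairs with it and had the highest level of the list at 483 FPKM, had a log2 fold change of 0.17 and did not pass (adjusted p = 0.0513). Adam22 and Lgi4, which encode a receptor and a ligand of Schwann cell differentiation, had between 0 and 4 counts, as seen after the lists were read.

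Enzymes of myelin lipid synthesis had 8 rows, of which 5 were tested and 0 called, with a median log2 fold change of 0.03. By edgeR, 2 of the 5 had an unadjusted p under 0.05, against 16.2% of all genes tested. Both were rows of Elovl6, higher in crushed nerves by 0.48 and 0.23 on the log2 scale (adjusted p = 0.127 and 0.140). Elovl6 was named here after its values were seen. Cers2 and Elovl1, which make very long chain ceramides and fatty acids, had 33.3 and 28.3 FPKM and log2 fold changes of 0.03 and -0.03 (adjusted p = 0.857 and 0.846 from the same edgeR test). Ugt8, Fa2h and Gal3st1, the enzymes of the galactolipids that mark myelin, had between 0 and 5 counts and were named after their values were seen.

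Regulators that drive myelin genes had 10 members tested, of which 9 had a log2 fold change below 0. The median was small, at -0.03, against -0.00174 for all genes tested. Of the 10, 1 was called at an adjusted p under 0.05, as were 3.12% of all genes tested. Over all genes tested, 6267 of 12393 had a log2 fold change below 0. Nab2 encodes a binding partner of EGR2, and it fell from 136 ± 6.52 to 110 ± 4.40 normalized CPM (SD over 3 nerves). Its log2 fold change was -0.31 ± 0.0497 (SE), at an adjusted p = 0.00717 by edgeR, and it had an adjusted p = 0.0541 without crushed nerve 1. Wwtr1 and Tead1, which encode a coactivator and a DNA-binding partner of the Hippo pathway, had the highest levels at 94.9 and 85.7 FPKM, with log2 fold changes of -0.21 and -0.01 (adjusted p = 0.0704 and 0.947). Sox10, the Schwann lineage factor, had between 0 and 1 counts. Egr2, the main switch of peripheral myelination, had between 21 and 69 counts and a log2 fold change of -0.59 that did not pass (adjusted p = 0.370). Sox10 and Egr2 were named here after their values were seen.

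Inhibitors of myelination were tested for all 8 genes, and all 8 had a log2 fold change below 0, with a median of -0.28. Of the 12393 genes tested, 6267 were below 0, and this list was chosen with earlier results known. Egr1, an immediate early gene of immature Schwann cells and of many other dividing cells, fell from 85.5 ± 6.93 to 51.3 ± 1.58 normalized CPM (SD over 3 nerves). This was the change of largest size among the 5 genes called, a log2 fold change of -0.74 ± 0.0625 (SE), at an adjusted p = 8.91e-05 by edgeR. The other 7 genes did not pass. Jun and Sox2, which hold back myelin genes in injured nerve and had the highest levels of the list at 44.1 and 27.0 FPKM, had log2 fold changes of -0.21 and -0.18 (adjusted p = 0.150 and 0.197).

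**Figure D3:**
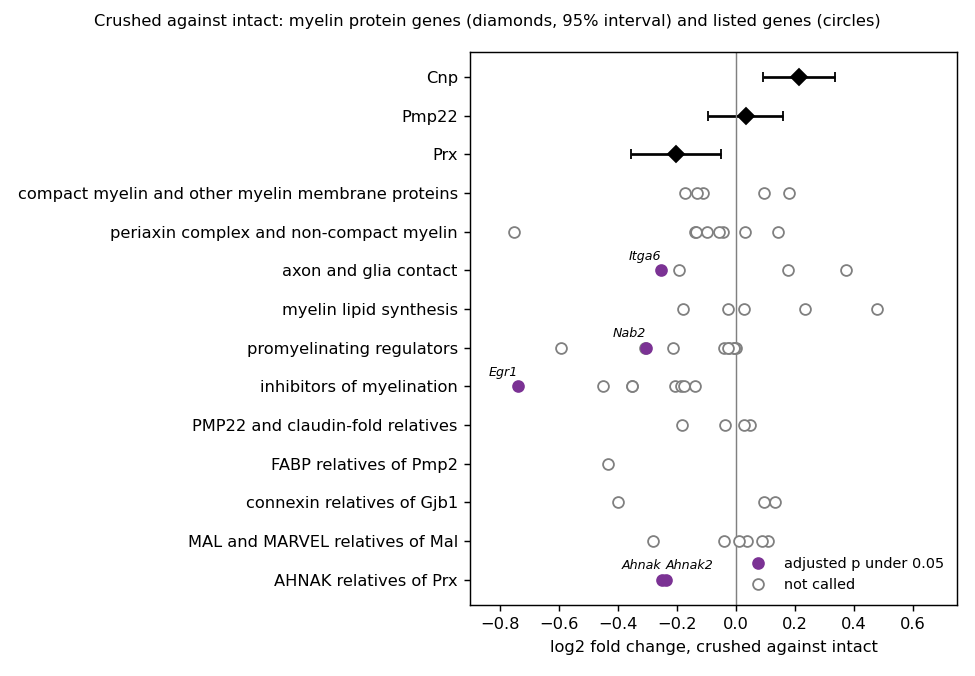
Log2 fold change, crushed against intact (x axis), of Cnp, Pmp22 and Prx (diamonds with their 95% interval) and of the 56 listed genes tested (1 circle per gene, 1 line per list, filled at an adjusted p under 0.05). The 5 filled circles (Egr1, Nab2, Itga6, Ahnak and Ahnak2) lie left of 0, and the intervals of Cnp (0.0901 to 0.335) and Prx (-0.357 to -0.0523) leave out 0 before correction.

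Relatives by protein family were read for 6 of the members. Prx has 2 relatives in the AHNAK family of large scaffolds, and both fell in crushed nerves as called by edgeR. Ahnak fell from 9633 ± 686 to 8089 ± 93.5 normalized CPM (SD over 3 nerves), or by a log2 fold change of -0.25 ± 0.0466 (SE), at an adjusted p = 0.0152 by edgeR. Ahnak2 fell from 288 ± 12.7 to 244 ± 8.31 normalized CPM, a log2 fold change of -0.24 ± 0.0452 (SE), at an adjusted p = 0.0170 by edgeR. With limma on log2(FPKM + 0.1) both had an adjusted p = 0.106. Ahnak was no longer called without intact nerve 2 or without any 1 of the 3 crushed nerves, and Ahnak2 without intact nerve 3, crushed nerve 1 or crushed nerve 2. The adjusted p lay between 0.000135 and 0.106 for Ahnak and between 0.000685 and 0.106 for Ahnak2 over all alternatives.

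For Pmp22, the relatives Emp3 and Emp1, epithelial membrane proteins of the same fold, had 324 and 246 FPKM, against 10.2 to 10.6 FPKM for Pmp22 as a mean of each group. Of 4 such relatives tested, 0 were called, and Emp3 differed by -0.18 on the log2 scale (adjusted p = 0.117 by edgeR). For Gjb1, which had 0 counts, the connexin 43 gene Gja1 had 183 FPKM and Gjc1 had 14.7 FPKM, with log2 fold changes of 0.09 and 0.13 (adjusted p = 0.213 and 0.433). Of 14 connexin genes, 8 had 3 counts or fewer in every nerve. For Mal, the relatives Plp2 and Myadm had 171 and 64.7 FPKM, and 0 of 6 relatives tested were called.

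For Pmp2 the fatty acid-binding family was nearly absent. Of 9 relatives, 7 had 0 counts in every nerve, Fabp12 had between 0 and 1, and Fabp3 had between 13 and 33 counts with a log2 fold change of -0.43 (adjusted p = 0.607 from the same edgeR test). For Mag none of the 7 Siglec relatives passed the expression filter, and Siglec10 and Siglec15, which had the highest levels, had at most 12 and 2 counts.

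**Figure D4:**
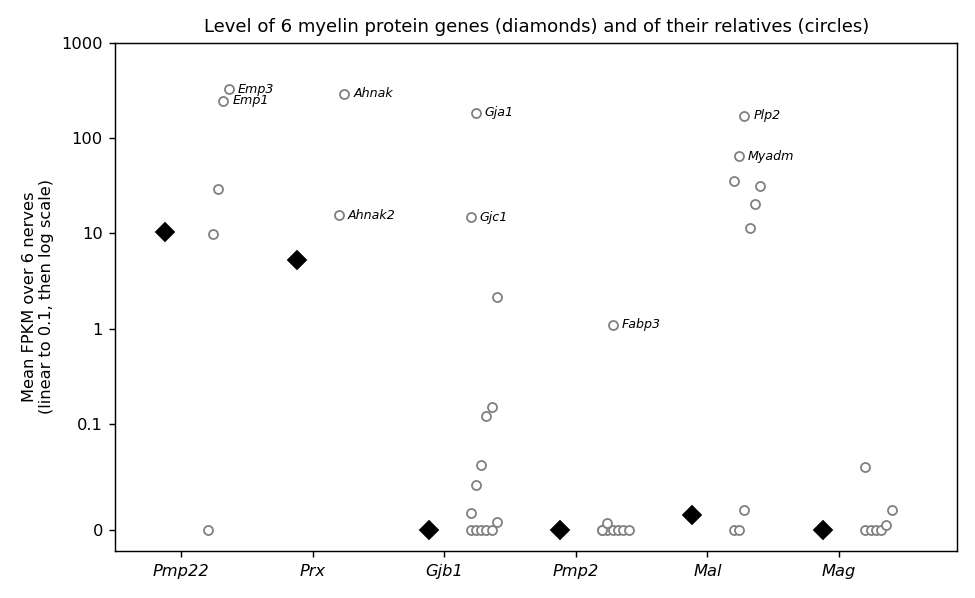
Mean FPKM over the 6 nerves (y axis, linear to 0.1 and logarithmic above) of 6 of the peripheral myelin protein genes (diamonds) and of the relatives listed for each (circles). Emp3, Emp1, Ahnak, Gja1 and Plp2 lie between 171 and 324 FPKM, while Gjb1, Pmp2 and Mag lie at 0.

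The marker lists gave the following values. Of 12 Schwann cell markers matched, 4 had 3 counts or fewer in every nerve, among them Sox10, S100b and Cdh19, and Cdh19 had 0. Ncam1, with 14.6 FPKM, and Gfap, with 1.05 FPKM, had the highest levels. The summed level of the list was between 103 and 115 normalized CPM in intact and between 88.2 and 96.1 in crushed nerves. Most of this sum was Ncam1, with a mean of 92.6 in intact and 78.4 in crushed nerves. Dhh and Gfap had log2 fold changes of 0.32 and 0.02 (adjusted p = 0.465 and 0.973 by edgeR), and Dhh, like Pdgfra, was named after its value was seen. By the same test, 2 of the 7 markers tested were called, Erbb3 (log2 fold change -0.59) and Ncam1 (-0.24), with an adjusted p = 0.0222 and 0.0438. Over all genes tested, 3.12% were called, and 1.65% were called lower. The 8 proliferation genes, by contrast, were among the well counted genes, with 162 FPKM for Top2a and 153 FPKM for Mki67, and summed to between 3534 and 3756 normalized CPM in intact and between 3418 and 3528 in crushed nerves, with 0 of the 8 called by edgeR (1 at an unadjusted p under 0.05).

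The summed markers of fibroblasts and of pericytes and smooth muscle were also lower in the crushed nerves. The fibroblast list summed to between 1400.5 and 1536 normalized CPM in intact and between 996 and 1030.2 in crushed nerves. Most of it was Fn1, with a mean of 1253 in intact and 835 in crushed nerves. Pdgfra differed in the other direction, by 0.19 on the log2 scale, and did not pass (adjusted p = 0.166 by edgeR). Of the 6 genes of the list tested, 3 were called, all lower (Fn1, Col1a1 and Col3a1), against 1.65% of all genes tested called lower. Col3a1 had few counts, between 3 and 23 per nerve, and Col1a2, Dcn, Lum and Postn had 0 counts. Its highest levels were those of Fn1 (109 FPKM) and Thy1 (86.5 FPKM). The pericyte and smooth muscle list summed to between 222 and 239 normalized CPM in intact and between 178 and 182 in crushed nerves. Most of it was Cspg4, with a mean of 181 in intact and 142 in crushed nerves. Of its 5 genes tested, 2 were called, both lower (Cspg4 and Pdgfrb), against the same 1.65% of all genes tested. Cspg4 (20.0 FPKM) and Tagln (15.0 FPKM) were highest there, and Rgs5 had 0 counts. The part of these cell types in the values of Cnp, Prx and the listed genes was not tested.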

How the data were processed

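RNA of 3 crushed and 3 intact rat sciatic nerves was sequenced. The authors deposited whole-number counts for each Ensembl gene in each nerve, without normalization, beside FPKM values of the same genes. The submitters' processing notes name HISAT2, StringTie 1.3.0 and the build Rnor_6.0, without roles. The counting rule, the strand and the annotation release are not given in the sources used here. The methods describe TRIzol, rRNA removal and digestion with RNase R (which removes linear RNA). In the labels a column kit is named, and RNase R is not.

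Counts were fitted in R 4.3.3 with edgeR 4.0.16 (limma 3.58.1 for the FPKM alternative). The quasi-likelihood test was run across all 12393 genes passing its filter, with TMM scaling, no replicate block and Benjamini-Hochberg adjustment. Calls used the methods' limits (absolute log2 fold change above 1, unadjusted p under 0.001) and, separately, an adjusted p under 0.05. The standard error came from the test statistic. Alternatives were the replicate block, DESeq2 (1.42.0), library totals in place of TMM, no filter, limma with a trend on log2(FPKM + 0.1), and each nerve left out. Columns were matched by sample title, with 0 other columns of values. Totals were between 24844371 and 27139360 counts per nerve. Floors of 3 counts cover counting error only. Replicates of a group differed by more than sampling noise (chi-square over its degrees of freedom from 3.27 to 11.8). The labels do not say that they came from separate rats, so p-values set a difference against the spread between these nerves. For edgeR this spread was estimated partly from the other genes tested. The calculation was tested on simulated data with planted changes larger than the fold limit. That test does not bear on changes as small as those of Cnp and Prx.

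The members and lists were chosen with earlier results of these data known. Named were all 8 members, and of each list the genes called and the 2 with the highest FPKM, up to 6 called. Of the marker lists, the defining markers near 0 and the 2 highest were named. Genes of like pattern are those with the highest Pearson's r among genes counted in every nerve. Of the listed names, 7 (Pou3f1, Hdac1, Qki, Foxd3, Pecam1, Myh4 and Ttn) were not analysed here, and values of some listed genes are not reported here. RefSeq promoter windows on GRCr8 were matched by symbol, and the coordinates of that build were not mixed with those of the table.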

Additional observations from a re-analysis of the deposited data

How the results depend on the processing

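The number of members called was 0 at the fold limit and 0 at an adjusted p under 0.05 in all 11 alternatives, with 1 or 2 of the 3 tested at an unadjusted p under 0.05 (edgeR, DESeq2 and limma). The log2 fold change of Cnp stayed between 0.189 and 0.250 (adjusted p between 0.0518, with DESeq2, and 0.281), that of Prx between -0.235 and -0.157 (adjusted p between 0.115 and 0.431) and that of Pmp22 between 0.0102 and 0.0582 (adjusted p between 0.689 and 0.971). The order Cnp, Pmp22, Prx per length held in 6 of 6 nerves on FPKM and with counts per kilobase on TMM library sizes, a scale added after the data were seen.

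With the replicate block (paired analysis), the log2 fold changes were 0.21 for Cnp (adjusted p = 0.0885), 0.03 for Pmp22 (0.839) and -0.20 for Prx (0.166), and 0 members were called. Deviations from the group means were not shared by nerves of the same number (r from -0.00965 to 0.0709 over 12393 genes), so the numbers were not taken to pair them.

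Of the 56 listed genes, 5 were called. This number was 9 with DESeq2, 3 with limma on log2(FPKM + 0.1) and between 3 and 7 with 1 nerve left out, and these alternatives were added for the lists after the data were seen. The cause was not tested. Egr1 and Itga6 were called in all 11 alternatives and Nab2 in all but 1. The added calls included genes higher in crushed nerves, Itgb1 and Cd82, both called with DESeq2 and with library totals. They also included genes lower in crushed nerves, Wwtr1 and Myrf, both called with DESeq2. Counts up to 3 limit what can be said of Mbp, Mag, Pmp2, Gjb1 and Mal.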

Other observations

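Markers of the other cell types that a nerve can hold were low in both groups, with exceptions. Of 9 macrophage and leukocyte markers, 3 were tested and 0 called, and the list summed to between 3.94 and 5.57 normalized CPM in intact and between 4.21 and 6.004 in crushed nerves. Cd14 (1.40 FPKM) and Cd68 (1.27 FPKM) were its highest, and Adgre1, Ptprc and Cd163 had 0 counts. The 6 endothelial markers matched summed to between 4.62 and 5.49 normalized CPM in intact and between 3.77 and 5.08 in crushed nerves, and 0 of 3 tested were called. Tek (0.638 FPKM) was the highest. Markers of T cells, adipocytes, skeletal muscle, liver and oligodendrocytes summed to at most 0.672 normalized CPM per list in any nerve, and 1 gene of these 5 lists, Apoa1, was tested (not called).

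Perineurial and epithelial markers summed to between 317 and 381 normalized CPM in intact and between 334 and 347 in crushed nerves. Nearly all of this was Slc2a1 (122 FPKM), a glucose transporter of many cells, while Epcam, Krt14, Krt18 and Krt19 had 0 counts. Of the axonal and neuronal markers, Uchl1 (49.3 FPKM) and Nefh (8.20 FPKM) were highest, Nefm and Gap43 had 0 counts, and 0 of 2 tested were called. Their sum was between 73.7 and 91.5 normalized CPM in intact and between 84.7 and 90.1 in crushed nerves.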
